A study of Rattus norvegicus with 6 samples.

Results

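The genes described are 9 acute phase proteins that adipocytes can secrete: Hp, Orm1, Lcn2, Cp, A2m, Serpina3n, Ptx3, Itih4 and Lbp. They are 9 of 18166 genes named on one-colour Affymetrix arrays. The samples are cultured rat ADSCs, adipose-derived stem cells, from which fat cells can form. Hp and Orm1 were selected on their measured difference between induced and control cells, so it is given as a description without a test. The other 7 were taken for their function, with earlier results of these data known, and the test is given for them. Each of the 9 had 1 feature with a single gene symbol in the platform annotation.

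The cells were isolated from inguinal fat; the donor rats were Wistar females, 2 weeks old. The 3 control cultures grew in α-MEM with 10% fetal bovine serum. The 3 induced cultures spent 7 days in α-MEM with 20% serum, 0.5 mM 3-isobutyl-1-methylxanthine (a phosphodiesterase inhibitor that raises cAMP), 1 µM dexamethasone (a synthetic glucocorticoid) and 5 µg/ml insulin. Effects of serum and of the inducers cannot be told apart. All 6 are labelled biological replicates, with no word on separate animals or on the time control cells spent in culture, so p-values measure only the spread between these cultures.

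Acute phase proteins are plasma proteins whose output changes when tissue is injured or infected. The liver is their main source, where interleukin 6 acting through STAT3, interleukin 1 acting through NF-κB and C/EBP factors, and glucocorticoids switch their genes on. Fat cells express several of them as well, haptoglobin, orosomucoid and lipocalin 2 among them, and C/EBP factors are also part of the adipogenic programme. The members differ in what they do: Hp, Lcn2 and Cp handle haemoglobin, iron-loaded siderophores and copper, Orm1 is a plasma carrier, A2m and Serpina3n inhibit proteases, Ptx3 and Lbp recognise microbes, and Itih4 belongs to the inter-alpha-trypsin inhibitor heavy chains.

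All values are log2 signals after RMA, the normalization and probe summary used by the submitters, so a step of 1 is a 2-fold change. Of the 9 genes, 4 lay higher on every induced array than on any control array (Hp, Orm1, Cp and Serpina3n), 1 lay lower on every induced array (Ptx3), and 4 overlapped (Lcn2, A2m, Itih4 and Lbp). Among the 7 not picked for their difference, 2 lay wholly higher and 1 wholly lower, where 12.0% and 13.4% of all genes did so. None of these 7 passed limma's test adjusted over all genes (0 of 7), where 0.749% of all genes passed, 0.479% higher and 0.27% lower. An unadjusted p under 0.05 was found for 4 of 7 (Cp, A2m, Serpina3n and Ptx3), against 17.6% of all genes. With 3 arrays in each group, 0.1 is the smallest p that exact permutation of the arrays allows. The median difference of the 7 was 0.91, beside -0.01 over all genes.

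**Figure D1:**
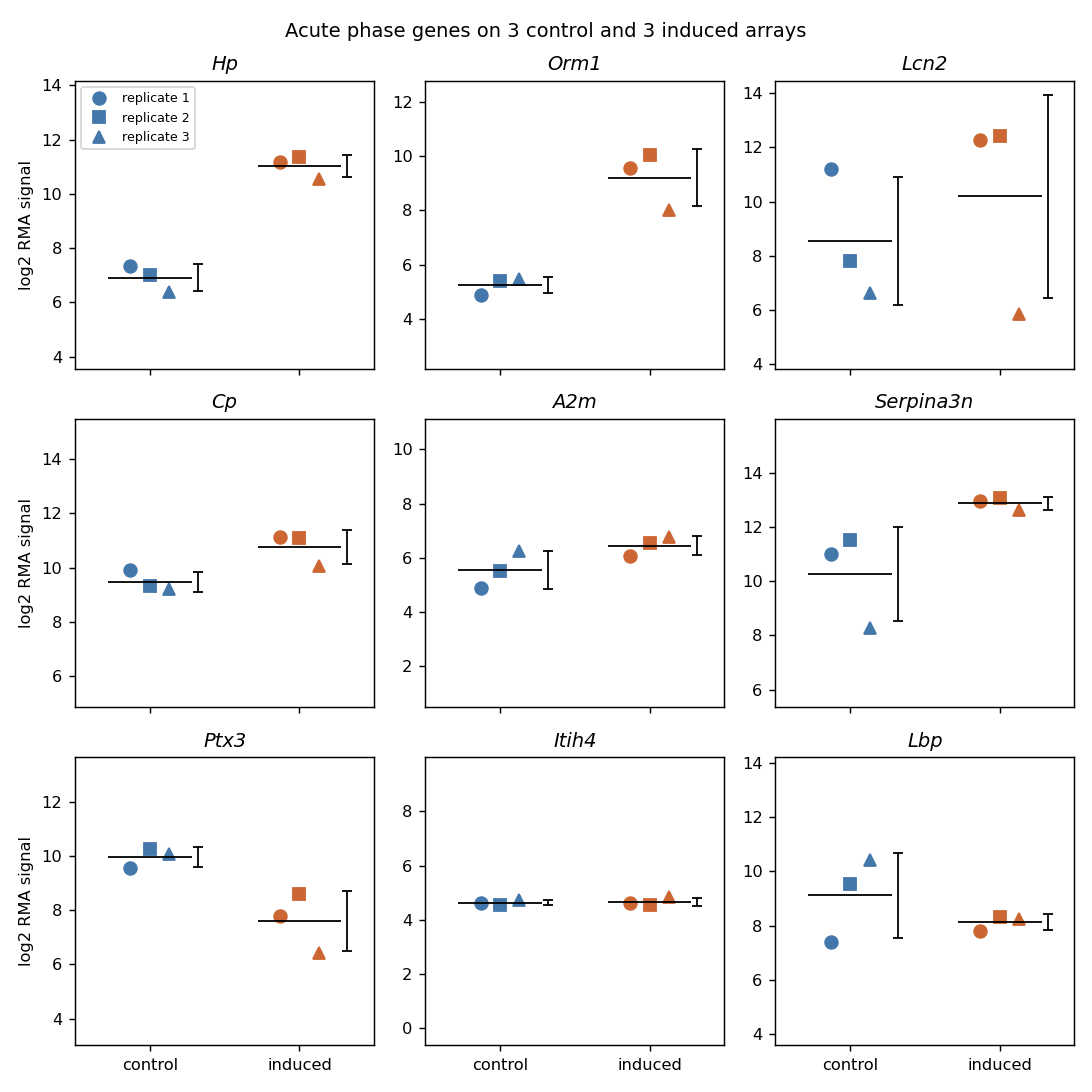
Log2 RMA signal (vertical axis, same span in every panel) of the 9 genes on 3 control (blue) and 3 induced (orange) arrays; symbols give the replicate number, horizontal lines the group means and bars to the right the SD. Hp and Orm1 show wide gaps between the groups, while the Lcn2 groups overlap, with induced replicate 3 at 5.86 below every control array.

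Arrays of the series were compared over all genes first, because 1 of them stands apart. Induced replicates 1 and 2 had 24 genes more than 2-fold apart, whereas induced replicate 3 differed by that much from them at 1526 and 1566 genes. Pairs of control arrays had 336 to 522 such genes. A fit without induced replicate 3 has only this close induced pair, not stated to come from separate animals. Its p-values may therefore be too small. Of the 15 measured adipocyte markers, 15 had positive estimates, 14 lay wholly higher in induced cells and 5 rose. Over all genes 12.0% lay wholly higher and 0.479% rose. The markers that rose included Gpd1, the source of glycerol phosphate, by 4.93 (adjusted p = 0.0189), the adipokine Retn by 4.72 (adjusted p = 0.0188), and the lipid droplet proteins Cidec by 4.62 (adjusted p = 0.0231) and Plin1 by 4.28 (adjusted p = 0.0312). These 4 were not called if control replicate 2, control replicate 3, induced replicate 1 or induced replicate 2 was left out. The list mean read 7.86, 6.58 and 6.36 in control replicates 1 to 3, then 9.93, 9.92 and 11.22 in the induced replicates. Such calls depended on single arrays: over all lists 10 genes were called higher and 2 lower, against 0 and 0 with induced replicate 1 left out. The counts became 3 and 0 if induced replicate 2 was dropped, 2 and 1 if control replicate 2 was, 3 and 0 if control replicate 3 was, and 24 and 7 if induced replicate 3 was. Stromal markers had negative estimates in 13 of 13, with 0 called. Of these 13, 7 lay wholly lower in induced cells, against 13.4% of all genes. The unadjusted p was under 0.05 for 7, against 17.6% of all genes. Cd34 stood at -1.31 (adjusted p = 0.269) and Nt5e at -1.10 (adjusted p = 0.211).

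The promoters of Orm1, Cp and Ptx3 are shown first because they share 8 letters, and that of Lcn2 because its level split within both groups. Each is the 250 bases before the gene's start in the RefSeq annotation of GRCr8, 5′ to 3′ on the gene's strand, which is plus for Orm1 (chr5:81788259-81788508), Cp (chr2:104368420-104368669) and Ptx3 (chr2:152797313-152797562) and minus for Lcn2 (chr3:36081781-36082030). Capitals mark matches on either strand to TTNNGNAA, a common form of the C/EBP site.
Orm1: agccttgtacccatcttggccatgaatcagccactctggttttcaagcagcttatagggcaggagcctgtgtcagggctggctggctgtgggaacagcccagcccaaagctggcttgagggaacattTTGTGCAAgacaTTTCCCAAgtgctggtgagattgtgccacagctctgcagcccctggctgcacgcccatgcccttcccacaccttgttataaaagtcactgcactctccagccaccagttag
Cp: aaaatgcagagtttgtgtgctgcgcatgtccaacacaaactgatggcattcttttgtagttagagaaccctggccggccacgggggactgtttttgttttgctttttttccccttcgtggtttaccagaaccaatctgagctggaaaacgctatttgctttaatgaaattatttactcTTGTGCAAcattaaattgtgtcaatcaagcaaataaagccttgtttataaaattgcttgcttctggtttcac
Ptx3: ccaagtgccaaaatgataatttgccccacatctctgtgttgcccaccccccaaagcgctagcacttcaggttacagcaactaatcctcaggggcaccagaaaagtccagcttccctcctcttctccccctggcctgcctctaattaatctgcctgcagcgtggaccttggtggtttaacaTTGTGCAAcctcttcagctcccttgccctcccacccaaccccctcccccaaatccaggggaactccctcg
Lcn2: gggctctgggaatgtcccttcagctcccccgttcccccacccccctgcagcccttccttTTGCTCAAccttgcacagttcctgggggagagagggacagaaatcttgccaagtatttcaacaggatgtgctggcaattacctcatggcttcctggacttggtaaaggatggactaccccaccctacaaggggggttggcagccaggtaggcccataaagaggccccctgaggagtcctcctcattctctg

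Promoter entries were found for 6 of the 9 genes, which also include Serpina3n and Itih4. Hp, A2m and Lbp had none in the table used. All 6 held TTNNGNAA at least once, and 37.2% of 33469 promoter windows of the same length did. In 3 of them a match was the same octamer, TTGTGCAA, at bases 123 to 116 before the start of Orm1, 72 to 65 before that of Cp and 70 to 63 before that of Ptx3. This octamer, singled out after the sequences were seen, occurred on either strand in 0.732% of windows. Of the genes that carry it, Orm1 and Cp were higher on every induced array and Ptx3 was lower.

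Sites of other regulators were searched on both strands too. The κB consensus, given by name only, matched at bases 242 to 233 before Lcn2 (GGAATGTCCC as read on the gene's strand), overlapping a match to CTGGGA, the core of an interleukin 6 response element, at bases 245 to 240. It also matched in overlapping positions at bases 14 to 4 before Ptx3, and occurred in 6.33% of windows. The STAT form TTCNNNGAA matched as TTCCCAGAA before both Serpina3n (bases 123 to 115) and Itih4 (bases 89 to 81), against 7.67% of windows. CTGGGA was found before Lcn2, Serpina3n and Itih4, inside the STAT match in the last pair and once more before Itih4, against 25.7% of windows. TGTTCT, the core hexamer of a glucocorticoid receptor site, matched in 0 of 6, against 17.5% of windows. These matches describe the letters in the window and not binding.

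Hp encodes haptoglobin, which binds free haemoglobin and hands it to macrophages for breakdown. Its control replicates 1 to 3 read 7.34, 6.99 and 6.37, and its induced replicates 1 to 3 read 11.18, 11.35 and 10.55. The lowest induced array stood 3.21 above the highest control array. The control mean was 6.90 ± 0.49 and the induced mean 11.03 ± 0.42 (SD, n = 3 arrays each), a difference of 4.13 (SE 0.31), or 17.5-fold. It ranked 17th of 18166 genes by increase. The difference stayed between 3.86 and 4.37 whichever array was left out.

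Orm1 encodes orosomucoid, or alpha-1-acid glycoprotein, a carrier of basic drugs and lipids in plasma. It read 4.90, 5.39 and 5.47 in control replicates 1 to 3, against 9.58, 10.04 and 8.02 in the induced replicates. Control arrays lay close together and all 3 were under the array's median feature (5.64 to 5.72), while induced replicate 3 fell short of the other induced arrays by 1.56 and 2.02. The means of 5.25 ± 0.31 and 9.21 ± 1.06 (SD, n = 3) differed by 3.96 (SE 0.50), or 15.5-fold, and Orm1 ranked 18th. Its control level was not shown to be above background, so this difference and fold may be lower bounds. Without induced replicate 3 the difference was 4.56 (SE 0.22).

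Lcn2 encodes lipocalin 2, also called neutrophil gelatinase-associated lipocalin, which starves bacteria of iron by binding their siderophores. Its control replicates 1 to 3 read 11.20, 7.79 and 6.64, and its induced replicates 1 to 3 read 12.27, 12.42 and 5.86. Control replicate 1 was thus near the induced pair, and induced replicate 3 was the lowest of all 6 arrays. Means were 8.54 ± 2.37 and 10.19 ± 3.75 (SD, n = 3). The difference of 1.64 (SE 1.99, 95% interval -3.11 to 6.40, adjusted p = 0.733) was smaller than the spread in either group. Without induced replicate 3 it was 3.81 (adjusted p = 0.164), and without control replicate 1 it was 2.97 (adjusted p = 0.551). It was 0.69, 0.60 and 0.52 when control replicate 3, induced replicate 1 or induced replicate 2 was left out (adjusted p = 0.936, 0.927 and 0.939). Its residual SD of 3.14 was the second largest of 18166 genes. The 6.41 between induced replicates 1 and 3 is larger than the difference between groups of any member.

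**Figure D2:**
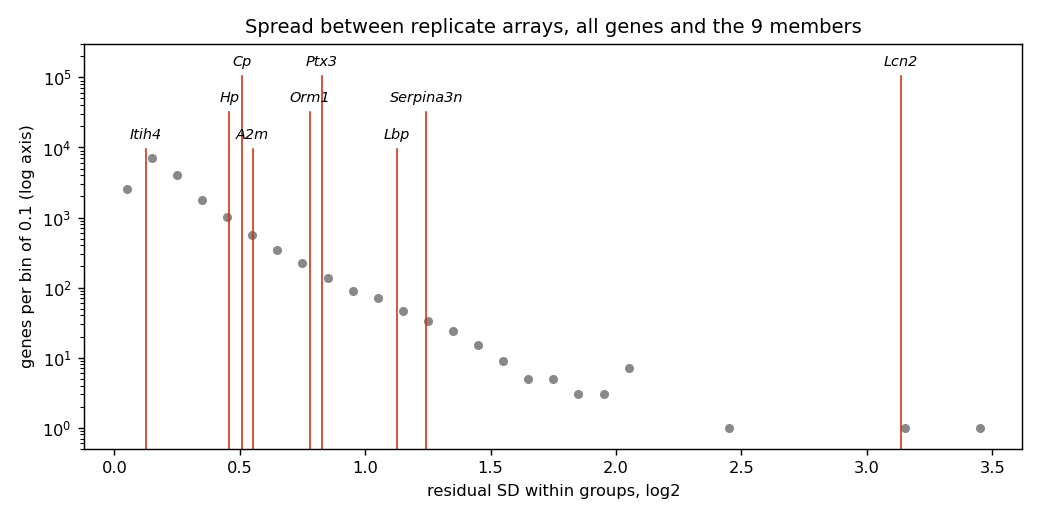
Number of genes (vertical log axis) in each bin of 0.1 of residual SD between replicate arrays (horizontal axis, log2 units); grey points are all 18166 genes and red lines the 9 members. Lcn2 at 3.14 lies far in the tail, whereas Itih4 at 0.13 lies among the common values.

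Lyz2, a macrophage lysozyme, was the 1 gene with a larger residual SD (3.49). It was named after its value was seen. Its control replicates 1 to 3 read 9.31, 10.19 and 4.71 and its induced ones 11.56, 10.99 and 4.44. Lyz2 and Lcn2 were both high on induced replicates 1 and 2 and low on control replicate 3 and induced replicate 3, but on control replicate 2 Lyz2 was high and Lcn2 was not. The 16 macrophage and leukocyte markers include Lyz2. Their mean was 6.67, 7.07 and 5.46 in control replicates 1 to 3, then 7.63, 7.14 and 5.98 in the induced replicates. Estimates were positive for 12 of 16, with 0 called. C1qb, a complement subunit made by macrophages, stood at 1.89 (adjusted p = 0.282) and the lysosomal Cd68 at 1.39 (adjusted p = 0.347). C1qb passed without induced replicate 3, at 2.88 (adjusted p = 0.00123), and was 1.25 without induced replicate 1. Cd68 was 0.61 without control replicate 3. Of the 10 neutrophil markers 0 were called, 8 had positive estimates and 4 lay wholly higher, against 12.0% of all genes. An unadjusted p under 0.05 was found for 3, against 17.6% of all genes. The list means ran from 4.55 to 4.60 in control and from 4.70 to 5.08 in induced cells. The granule enzyme Mpo stood at 0.95 (adjusted p = 0.0664, and 0.0238 without induced replicate 3) and the chemokine receptor Cxcr2 at 1.73 (adjusted p = 0.245). Cxcr2 passed without induced replicate 3, at 2.44 (adjusted p = 0.0252), and was 1.04 without induced replicate 1. The part of these cells in the Lcn2 signal was not tested, and in bulk RNA fewer cells of a type and less RNA per cell cannot be told apart.

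Cp encodes ceruloplasmin, the copper ferroxidase of plasma. It read 9.90, 9.33 and 9.21 in control replicates 1 to 3, against 11.14, 11.09 and 10.05 in the induced replicates. The groups did not overlap, but induced replicate 3 cleared control replicate 1 by 0.15 only. Means were 9.48 ± 0.37 and 10.76 ± 0.61 (SD, n = 3), and the difference of 1.28 (SE 0.33, 95% interval 0.48 to 2.08) did not pass over all genes (adjusted p = 0.137). It passed without induced replicate 3, at 1.63 (adjusted p = 0.0169).

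Serpina3n encodes an alpha-1-antichymotrypsin-like serpin, an inhibitor of serine proteases. Its control replicates 1 to 3 read 10.98, 11.52 and 8.27, and its induced replicates 12.94, 13.06 and 12.61. All induced arrays were higher and close together, and control replicate 3 lay 2.71 below the next control array. Means were 10.26 ± 1.74 and 12.87 ± 0.24 (SD, n = 3). The difference was 2.61 (SE 0.79, 6.11-fold, 95% interval 0.71 to 4.51, adjusted p = 0.178). Leaving out control replicate 3 reduced it to 1.62 (SE 0.23, adjusted p = 0.0969), and leaving out the replicate 3 array of each group gave 1.75 (adjusted p = 0.00705), which passed. Its residual SD of 1.24 ranked 90th of 18166.

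A2m encodes alpha-2-macroglobulin, a cage-like inhibitor of many proteases and a strong acute phase protein of the rat liver. It read 4.87, 5.50 and 6.26 in control replicates 1 to 3, against 6.07, 6.53 and 6.75 in the induced replicates, so that control replicate 3 exceeded induced replicate 1. Control replicates 1 and 2 lay under their array's median feature (5.64 and 5.69). Means were 5.54 ± 0.70 and 6.45 ± 0.35 (SD, n = 3). The difference of 0.91 (SE 0.36, 95% interval 0.04 to 1.77) did not pass over all genes (adjusted p = 0.269), and was 0.57 without control replicate 1. Unlike Hp, Orm1, Lcn2, Cp and Serpina3n, A2m was highest of the induced arrays on induced replicate 3.

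Ptx3 encodes pentraxin 3, a long pentraxin that stromal, endothelial and myeloid cells release on inflammatory signals. Its control replicates read 9.55, 10.25 and 10.08, and its induced replicates 1 to 3 read 7.79, 8.61 and 6.41. Every induced array was below every control array, and induced replicate 3 was the lowest. Means were 9.96 ± 0.37 and 7.60 ± 1.11 (SD, n = 3). The difference of -2.35 (SE 0.53, 95% interval -3.63 to -1.08), or 5.11-fold lower, did not pass over all genes (adjusted p = 0.106). It passed without induced replicate 3, at -1.76 (adjusted p = 0.0335), where the difference was smaller and so was its SE (0.30). By size it was the 21st largest decrease of 18166 genes.

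Lbp encodes lipopolysaccharide-binding protein, which passes bacterial endotoxin to CD14 and TLR4. It read 7.38, 9.54 and 10.43 in control replicates 1 to 3, against 7.80, 8.33 and 8.26 in the induced replicates. The induced arrays lay within 0.53 of each other and the control arrays spread over 3.05, with control replicate 1 below every induced array. Means were 9.12 ± 1.57 and 8.13 ± 0.29 (SD, n = 3). The difference was -0.99 (SE 0.72, 95% interval -2.71 to 0.74, adjusted p = 0.539). Without control replicate 1 it was -1.85 (SE 0.31, adjusted p = 0.0964), and without control replicate 3 it was -0.33 (adjusted p = 0.875). On control replicate 1 Lbp and Lcn2 stood at opposite ends of their group, Lbp lowest and Lcn2 highest.

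Itih4 encodes inter-alpha-trypsin inhibitor heavy chain 4, mainly a liver product. It read 4.64, 4.54 and 4.73 in control and 4.63, 4.54 and 4.84 in induced replicates 1 to 3. All 6 values lay within 0.30 of each other and under the median feature of each array (5.64 to 5.73). Means were 4.64 ± 0.09 and 4.67 ± 0.15 (SD, n = 3). The difference was 0.04 (SE 0.12, 95% interval -0.26 to 0.33, adjusted p = 0.916). RMA gives no detection call, so these values do not say whether the transcript was present.

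**Figure D3:**
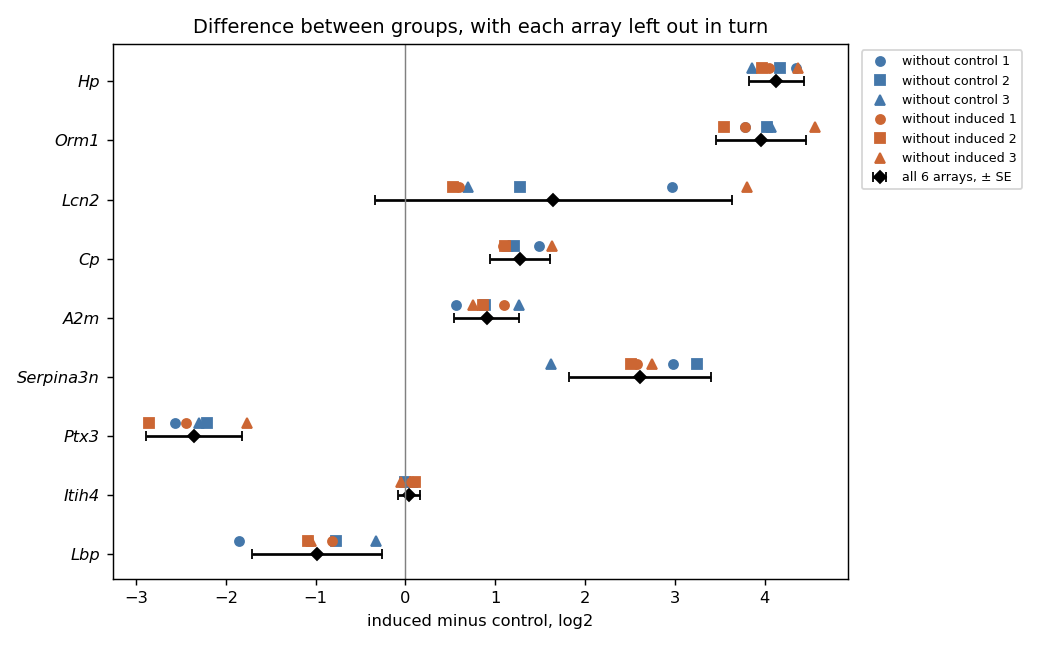
Difference between induced and control means (horizontal axis, log2) for the 9 genes; black diamonds with bars are the estimate ± SE from all 6 arrays, and coloured symbols above them the estimate with 1 array left out. Hp stays between 3.86 and 4.37, whereas Lcn2 ranges from 0.52 to 3.81 and Lbp from -1.85 to -0.33.

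The order of the arrays within each group was compared next. Induced replicate 3 was the lowest of the 3 induced arrays for 6 of the 9 genes (Hp, Orm1, Lcn2, Cp, Serpina3n and Ptx3), where 41.3% of all genes were lowest there. The adipocyte marker mean was highest on that array. In control cells 3 of the 9 (Hp, Lcn2 and Cp) were highest on control replicate 1, as was the adipocyte marker mean, against 37.1% of all genes. Orm1, A2m, Ptx3 and Lbp were lowest there. The part that the other differences of induced replicate 3 had in these levels was not tested.

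**Figure D4:**
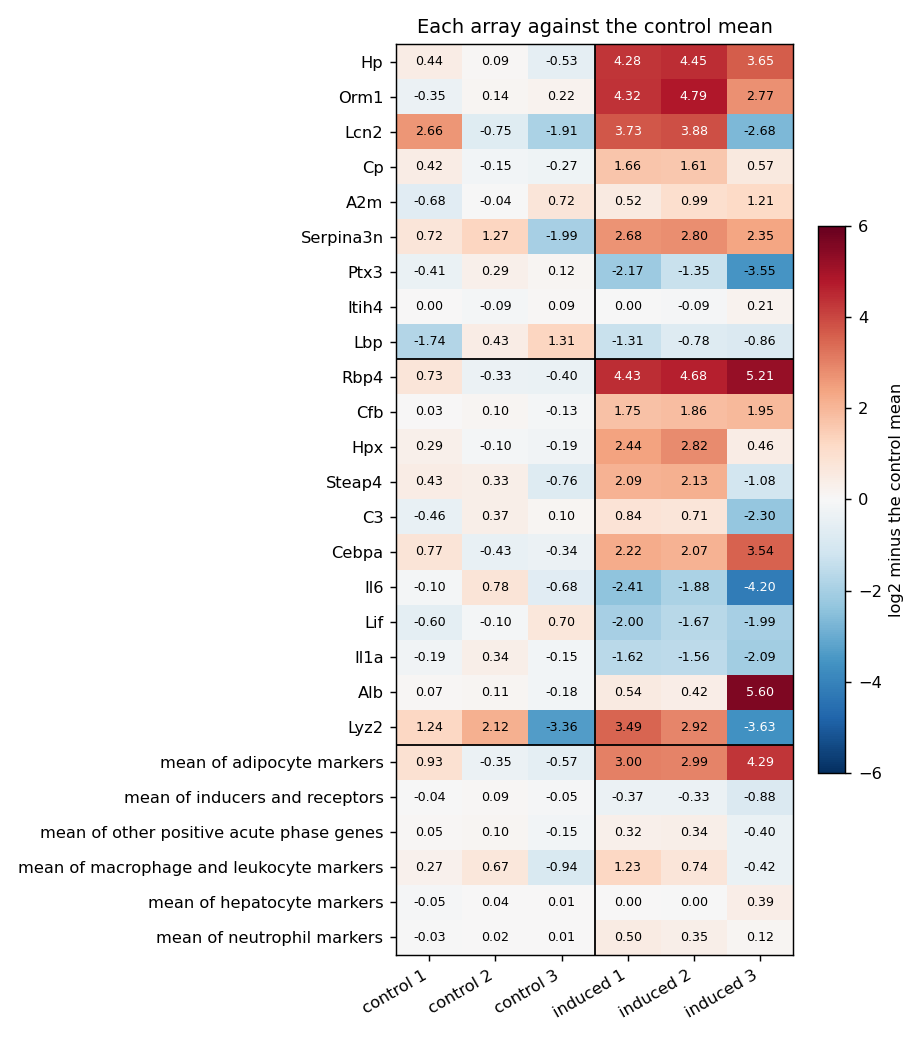
Log2 value of each gene or list mean minus its own control mean (colour scale and printed numbers), on 3 control and 3 induced arrays; the top block holds the 9 members, the middle block related genes and the bottom block means of lists. On induced replicate 3 Lcn2 is at -2.68 and Cp at 0.57, while the adipocyte marker mean is at 4.29 and Alb at 5.60.

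Across the 6 arrays the highest correlations between members were Hp and Orm1 (Pearson r = 0.961), Hp and Cp (r = 0.911) and Orm1 and Cp (r = 0.907). Hp and Orm1 were both selected on their difference between the groups, so a high r between them follows from that choice. In control replicates 1 to 3 Hp fell (7.34, 6.99 and 6.37) while Orm1 rose (4.90, 5.39 and 5.47). In induced cells both were highest on replicate 2 and lowest on replicate 3. Lcn2 correlated with Hp at 0.455 and with Cp at 0.773. These values are descriptions over 6 arrays that fall into 2 groups and share a normalization. Cp, A2m and Itih4 ranged over less than 2 log2 units and were not matched to other genes. Among genes that ranged over at least 1 log2 unit, the 3 most like Hp were Lrig2 (r = 0.998) and the terminal complement components C6 (r = 0.998) and C7 (r = 0.995). Those most like Orm1 were Eln (r = 0.987), Sox5 (r = 0.984) and Nfx1 (r = 0.978). Lcn2 was most like Cnnm1 (r = 0.995), Snrpf (r = 0.989) and Iffo1 (r = 0.984), and Serpina3n most like Ro60 (r = 0.998), Smpdl3a (r = 0.992) and Prex2 (r = 0.991). Ptx3 was most like Tmem45a (r = 0.996), Itgb5 (r = 0.995) and Kdelr3 (r = 0.995), and Lbp most like Wfdc18 (r = 0.997), Osbp2 (r = 0.983) and Tp53i11 (r = 0.958). Pearson r takes no account of size: Lrig2 differed by 0.89 between groups and C6 by 3.64, beside 4.13 for Hp. Snrpf differed by 0.21, beside 1.64 for Lcn2. These genes had the highest r of many over 6 arrays, and a link to the members was not tested.

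Signals that drive acute phase genes in liver were taken as a list. Of 24 measured ligands, receptors and transducers 0 rose and 2 fell, where 0.479% and 0.27% of all genes did so. Estimates were negative for 17, and 8 lay wholly lower, against 13.4% of all genes. Il1a, which encodes interleukin 1 alpha, fell by 1.76 (SE 0.21, adjusted p = 0.0266), and the decoy receptor Il1r2 fell by 1.94 (SE 0.19, adjusted p = 0.0181). Il1a read 4.64, 4.69 and 4.17 in induced replicates 1 to 3, under the median feature of each array (5.67 to 5.73). Il1a lost its call with any array but induced replicate 3 left out, and Il1r2 without control replicate 3, induced replicate 1 or induced replicate 2. Il6, Lif, Il1b, Tnf and Stat3 were chosen for their role after their values were seen. Interleukin 6 itself (Il6) read 8.59, 9.47 and 8.02 in control replicates 1 to 3, then 6.28, 6.81 and 4.49 in the induced replicates, a difference of -2.83 (adjusted p = 0.107), or -2.15 without induced replicate 3 (adjusted p = 0.0466). Lif, which signals through the same receptor chain, stood at -1.89 (adjusted p = 0.0635). It passed without control replicate 1 (adjusted p = 0.0492) or without induced replicate 3 (adjusted p = 0.0495). On induced replicate 3 Il6 was under the median feature of the array, so the size of its difference may be a lower bound. Il1b lay between 4.08 and 4.75, Tnf between 5.53 and 5.89, and Stat3 between 10.55 and 10.86 over all 6 arrays. Il1b was thus under the median feature of each array (5.64 to 5.73) and Tnf was close to it. Whether these 2 were present is not known, so their narrow ranges do not show an unchanged level.

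Of 16 measured transcription factors of acute phase genes 0 were called, while 8 had an unadjusted p under 0.05, against 17.6% of all genes. Wholly higher in induced cells were 2 and wholly lower 6, where 12.0% and 13.4% of all genes were, and the median was -0.16. Cebpa, a driver of both adipogenesis and acute phase genes, read 8.19, 7.00 and 7.08 in control and 9.64, 9.50 and 10.96 in induced replicates 1 to 3 (difference 2.61, SE 0.48, adjusted p = 0.0762, and 0.0314 without induced replicate 3). Cebpa was highest of the induced arrays on replicate 3, as were A2m and Itih4, whereas Hp, Orm1, Lcn2, Cp, Serpina3n and Ptx3 were lowest there. Of the control arrays it was highest on replicate 1, as were Hp, Lcn2 and Cp, whereas Orm1, A2m, Ptx3 and Lbp were lowest there. Egr1, an immediate early factor, stood at -1.43 (adjusted p = 0.272), and at -0.70 without induced replicate 3, where it passed (adjusted p = 0.0482). Cebpb and the glucocorticoid receptor gene Nr3c1, chosen for their role after their values were seen, lay between 7.52 and 8.16 and between 9.19 and 9.70 on all arrays. Among 15 measured targets of the glucocorticoid receptor 3 rose and 0 fell, where 0.479% and 0.27% of all genes did so. Those that rose were the leucine zipper gene Tsc22d3 by 2.31 (adjusted p = 0.0154), the co-chaperone Fkbp5 by 1.52 (adjusted p = 0.033) and the mTORC1 inhibitor Ddit4 by 1.25 (adjusted p = 0.0371). None of these 3 was called without control replicate 2, induced replicate 1 or induced replicate 2. Fkbp5 and Ddit4 also lost the call without control replicate 3, and Fkbp5 without control replicate 1. The list median was 0.23.

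Other positive acute phase genes, those whose plasma level goes up in inflammation, formed a further list. Of 34 measured, 1 rose and 0 fell, where 0.479% and 0.27% of all genes did so. Of the estimates 17 were positive and 17 negative, and the median was -0.02. The gene that rose was Cfb, complement factor B, which read 8.09, 8.15 and 7.93 in control and 9.81, 9.92 and 10.01 in induced cells, a rise of 1.85 (SE 0.12, adjusted p = 0.00537). Without induced replicate 1 its adjusted p was 0.051. Hpx, Steap4 and C3 were singled out after their values were seen. Hemopexin (Hpx), the plasma carrier of haem, read 6.64, 6.25 and 6.16 in control and 8.79, 9.18 and 6.82 in induced replicates 1 to 3 (difference 1.91, adjusted p = 0.18). It passed without induced replicate 3, at 2.63 (adjusted p = 0.00204). The metalloreductase Steap4 read 8.43, 8.32 and 7.23, then 10.08, 10.12 and 6.91 (difference 1.04, adjusted p = 0.598), and C3 read 10.38, 11.21 and 10.94, then 11.68, 11.56 and 8.55 (difference -0.25, adjusted p = 0.915). Steap4 passed without induced replicate 3, at 2.11 (adjusted p = 0.0322), and was 0.50 without induced replicate 2. Like Lcn2, these 3 were higher on induced replicates 1 and 2 than on any control array, and lowest of the induced arrays on replicate 3.

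Negative acute phase genes are those whose liver output drops in inflammation. Of 12 measured, 1 rose and 0 fell, against 0.479% and 0.27% of all genes, with 9 positive estimates and a median of 0.14. Rbp4, the plasma retinol carrier and an adipokine, rose by 4.77 (SE 0.35, adjusted p = 0.00799, and 0.07 without induced replicate 1). Alb, which encodes albumin, lay between 5.49 and 6.21 on 5 arrays and read 11.27 on induced replicate 3, and its difference of 2.19 (adjusted p = 0.456) was 0.48 without that array. Of 13 hepatocyte markers 0 were called and the median was -0.01. The list means ran from 4.76 to 4.85 in control and were 4.81, 4.80 and 5.20 in induced replicates 1 to 3, the last holding Alb. Hpd, a tyrosine breakdown enzyme, stood at -0.19 (adjusted p = 0.513).

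Relatives of the members share a gene family or a ligand with one of them. Of 25 measured, 1 rose (again Rbp4) and 0 fell, against 0.479% and 0.27% of all genes, with a median of -0.03. Of 18 receptors and partners 0 were called, with a median of -0.02. The haptoglobin receptor Cd163 stood at 0.86 (adjusted p = 0.544), or 1.65 without induced replicate 3 (adjusted p = 0.0165), and the lipocalin 2 partner Mmp9 at -0.65 (adjusted p = 0.434). Cd163 read 6.32 and 6.42 on induced replicates 1 and 2 and 4.02 to 4.99 on the other arrays. Among other cell types, 0 of 9 mesothelial and epithelial markers and 0 of 6 endothelial markers were called. The mesothelial Msln stood at -1.17 (adjusted p = 0.26) and Wt1 at -0.51 (adjusted p = 0.442), and the endothelial Tek at -0.74 (adjusted p = 0.34) and Esam at -0.18 (adjusted p = 0.8).

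Genes next to the members in the GRCr8 gene order were taken by position alone. Of 18 such neighbours 0 were called. The groups overlapped for 9 and did not for the other 9, where 25.4% of all genes did not overlap. Txnl4b and Dhodh beside Hp stood at 0.28 (adjusted p = 0.42) and 0.62 (adjusted p = 0.101), and Col27a1 and Akna beside Orm1 at -0.30 (adjusted p = 0.332) and -0.72 (adjusted p = 0.13). Itih3, next to Itih4 and of the same family, stood at 0.03 (adjusted p = 0.936), and Bpi, next to Lbp and of the same family, at 0.05 (adjusted p = 0.873).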

How the data were processed

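RNA of 3 control and 3 induced rat ADSC cultures was measured on one-colour Affymetrix arrays, from 6 µg of total RNA each per the labels' protocols. The deposited values were made with RMA, per the submitters' processing notes, and are log2 signals as read from their range (array medians 5.64 to 5.73). RMA's version and the genome build are not given in the sources used here. Of 36685 features, 18511 had 1 gene symbol. The feature with the highest mean was kept per gene, leaving 18166 genes. The number of arrays limits the precision. The contrast of induced with control was fitted in limma 3.58.1 under R 4.3.3 (lmFit, eBayes, two-sided, 4 residual and 2.65 prior degrees of freedom), adjusted by Benjamini-Hochberg over all genes, called under 0.05, and the fit was tested on simulated data. The members and 14 gene lists were chosen with earlier results of these data known. Named were the members, up to 4 called genes per list (or the 2 of largest change) and the 3 genes most correlated with each member that ranged over at least 2, without pseudogenes, small RNAs or placeholder symbols. Other genes are said to be named outside this rule. Listed genes without a single-symbol feature were not analysed here.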

Additional observations from a re-analysis of the deposited data

How the results depend on the processing

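The estimates of Hp, Orm1, Lcn2, Cp, A2m, Serpina3n, Ptx3 and Lbp kept their direction under every alternative that could be run for them, while calls depended on the arrays used. Tested members called numbered 0 with all arrays, 0 to 2 with 1 array left out (2 without induced replicate 3), 3 without both replicate 3 arrays and 2 with array weights. Calls without induced replicate 3 rest on induced replicates 1 and 2, which had 24 genes more than 2-fold apart. For all genes, 136 were called, 2 to 557 with 1 array left out, 740 without both replicate 3 arrays, 929 with array weights and 69 over all features. Over the lists, higher calls ranged from 0 to 24 and lower calls from 0 to 7 with 1 array left out. They numbered 29 and 9 without both replicate 3 arrays, and 26 and 6 with array weights. With the replicate number as a block, 12 genes, 0 members and 0 listed genes (0 higher, 0 lower) were called. Deviations from the group means of arrays with the same number correlated at 0.02, 0.12 and 0.15. Control replicate 1 correlated nearly alike with induced replicates 1 and 2 (0.02 and 0.04), and so did control replicate 2 (0.123 and 0.120). Induced replicates 1 and 2 were themselves close. Deviations from a group mean are tied to each other, so these correlations are not independent. Control replicate 3 correlated best with induced replicate 3, against -0.125 and -0.142 with induced replicates 1 and 2. With the block the SE of every member was smaller, 1.03 for Lcn2 against 1.99 without it. Whether the numbers pair the cultures is thus not settled, and the labels state no pairing, so the main fit has no block. Itih4 changed sign without control replicate 2 (-0.0097), without induced replicate 3 (-0.048), without both replicate 3 arrays (-0.0030) and with array weights (-3.0e-05). With 1 array left out C3 ran from -0.79 to 0.77 (positive without induced replicate 3), Esam from -0.38 to 0.10 (positive without induced replicate 3) and Lyz2 from -0.75 to 3.21 (negative without control replicate 3, and at -0.35 and -0.066 without induced replicates 1 and 2). C3 also turned to 0.82 without both replicate 3 arrays and to 0.42 with array weights. Of the members, A2m and Itih4 were below the median level and have no value under that filter. The same holds for Il1a, C1qb, Cd163, Cxcr2, Mpo, Mmp9, Cd34, Hpd, Tek, Esam and Wt1. The causes were not tested.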
